A study of Mus musculus with 4 samples.

Results

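Expression of 7 genes linked to water, ion and gap junction transport in astrocytes was followed across the classes of nuclei and the 4 libraries of a mouse stroke experiment. The genes are Aqp4, Dtna, Dag1, Gja1, Gjb6, Atp1b2 and Slc4a4. They were chosen by symbol from the 46983 genes of the files, and all 7 were present and measured. The study profiled single nuclei from the forebrain of male C57Black/6 mice aged 3 months, by droplet-based RNA sequencing. Permanent closure of the middle cerebral artery (MCAO), which leaves a small lesion in the parietal cortex, preceded the groups of day 1, day 3 and day 7, and the remaining group was a sham control. Each group held 1 library made from 3 hemispheres pooled during the isolation of nuclei, so differences between groups could not be checked against replicates and no p-value is given. Intervals are 95% intervals that cover counting error only.

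Astrocytes ensheath blood vessels with endfeet. There the water channel AQP4 is held in the membrane by the dystrophin-associated complex, in which alpha-dystrobrevin (Dtna) and dystroglycan (Dag1) link the cytoskeleton to laminin and agrin of the basal lamina. Connexin 43 (Gja1) and connexin 30 (Gjb6) build the gap junctions that join astrocytes into a network. The beta2 subunit of the sodium pump (Atp1b2) and the sodium bicarbonate cotransporter NBCe1 (Slc4a4) take part in clearing ions and in handling pH. In GRCm38 the genes lie at chr18:15389496-15410982 on the minus strand (Aqp4), chr18:23415135-23659715 on the plus strand (Dtna), chr9:108204634-108263958 on the minus strand (Dag1), chr10:56377330-56402513 on the plus strand (Gja1), chr14:57123303-57133611 on the minus strand (Gjb6), chr11:69599736-69605942 on the minus strand (Atp1b2) and chr5:88886818-89239653 on the plus strand (Slc4a4). Aqp4 and Dtna each share their locus with an antisense gene of the annotation that the files do not list. The study's counting options name no strand setting, and the program's default counts reads of the sense strand.

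The libraries held 23285489 to 42963698 unique molecular identifiers (UMIs, counted transcripts), and 7792 nuclei were kept. The sham control gave 2118 of these, and the libraries of day 1, day 3 and day 7 gave 1017, 3092 and 1565. Between 0 and 3 barcodes were shared by any pair of libraries. The study's own account of nuclei per time point makes day 7 the larger of the late libraries, whereas among the deposited libraries the one labelled day 3 is larger, and this difference was not resolved. The deposited labels were kept, and every statement on day 3 or day 7 rests on them. One source names intact cortex as control tissue and another names forebrain hemispheres, and 341 sham nuclei were striatal projection neuron-like.

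Nuclei were clustered and named without the 7 genes, so their levels did not set the classes. A single cluster was astrocyte-like, with all 14 of the astrocyte markers detected and led by the glutamate transporter Slc1a3. It held 145 nuclei in sham control, 54 on day 1, 217 on day 3 and 69 on day 7, which was 6.85%, 5.31%, 7.02% and 4.41% of the nuclei. These nuclei were shallow, with a median of 3006, 5347, 2814 and 3556 UMIs in the same order. A further 162 nuclei formed an unnamed cluster that was led by mitochondrial and heat shock genes and whose closest class was the astrocyte. It held 16, 27, 92 and 27 nuclei. At a clustering resolution of 1.5, 105 of the 162 fell in a cluster whose closest class was the neuroblast and 56 in one whose closest class was the astrocyte, both unnamed, so most of these nuclei are not shown to be astrocytes. Where adding them changes a call or takes a ratio out of its interval, both values are given. UMIs of all nuclei of a class were summed and are given as CPM, counts scaled to a common total of UMIs for each class, which compares a gene between classes and libraries but not with another gene.

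Aqp4, Gja1, Gjb6, Atp1b2, Dtna and Slc4a4 had their highest mean level in astrocyte-like nuclei, for Gjb6 by a margin within the spread over libraries, whereas Dag1 did not. Aqp4 reached a mean of 309 ± 148 CPM (SD over the 4 libraries, each of another time point) in astrocyte-like nuclei. Ependymal cell-like nuclei, the ciliated lining of the ventricles, followed with 197 ± 40.1 CPM, and the ranges over libraries overlapped, from 179 to 519 CPM against 141 to 231 CPM. The ependymal values of day 1 and day 7 rest on 7 and 6 nuclei, of which 1 gave 63.6% and 70.6% of the Aqp4 UMIs, and without the richest nucleus of each library the levels were 152, 99.3, 179 and 148 CPM from sham control to day 7. Endothelial cell-like nuclei held 85.7 ± 46.7 CPM, carried by few nuclei: 1 nucleus gave 50%, 100%, 82.8% and 44.4% of the UMIs in the 4 libraries, and without it the levels were 84.7, 0, 11.96 and 39.8 CPM. Free RNA would give 6.59 to 9.83 CPM there. In cortical glutamatergic neuron-like nuclei Aqp4 was 2.31 to 3.62 CPM. That is near or under the 2.01 to 6.85 CPM expected from free RNA, which droplets take up from broken cells. That expectation was itself scaled on markers of other cells in these neurons, so the closeness is in part built in.

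The connexins were shared by astrocyte-like and leptomeningeal fibroblast-like nuclei. Leptomeningeal fibroblasts are cells of the brain's covering, but of the 102 nuclei of this class 42 formed a mural cell-like cluster, the cells that wrap small vessels, at a resolution of 1.5. Gja1 had a mean of 337 ± 89.9 CPM in astrocyte-like nuclei, 218 ± 130 CPM in leptomeningeal fibroblast-like nuclei and 212 ± 66.2 CPM in ependymal cell-like nuclei, and the ranges over libraries of neighbours in this order overlapped. Gjb6 had a mean of 139 ± 11.8 CPM in astrocyte-like and 132 ± 78.6 CPM in leptomeningeal fibroblast-like nuclei, which were not told apart. Ependymal cell-like nuclei carried Gja1 with little Gjb6, at 13.9 ± 9.09 CPM from 6 UMIs in all. The fibroblast-like values rest on 78 UMIs of Gja1 and 52 UMIs of Gjb6 from 11 to 47 nuclei per library. All 78 UMIs of Gja1 and 51 of those of Gjb6 lay in the other 60 nuclei, where the levels over all libraries were 295 CPM (233 to 368) and 193 CPM (144 to 254). For Gjb6 these 60 nuclei stood at 263, 32.7, 227 and 140 CPM from sham control to day 7, against 127 to 154 CPM in astrocyte-like nuclei, so the first place of astrocyte-like nuclei depends on where the fibroblast-like class is drawn. The 42 mural cell-like nuclei held 0 UMIs of Gja1, with an interval up to 49.8 CPM, and 1 of Gjb6.

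Atp1b2 had a mean of 285 ± 52.6 CPM in astrocyte-like nuclei, and its range over libraries, 238 to 351 CPM, lay above that of every other class. Ependymal, leptomeningeal fibroblast- and endothelial cell-like nuclei came next, at 97.2 ± 78.6, 79.3 ± 41.8 and 77.2 ± 51.0 CPM, and were not told apart. On day 1, 20 of the 23 ependymal UMIs came from 1 nucleus, and without it that level was 37.2 CPM in place of 205. Dtna had a mean of 1332 ± 153 CPM in astrocyte-like nuclei against 432 ± 34.5 CPM in oligodendrocyte-like nuclei, again without overlap. It was also found in neurons, at 262 to 274 CPM in cortical glutamatergic neuron-like nuclei, where free RNA would give 6.71 to 15.9 CPM. Slc4a4 had a mean of 1691 ± 325 CPM in astrocyte-like nuclei and 871 ± 144 CPM in striatal projection neuron-like nuclei, the output neurons of the striatum, where 93.0% to 96.7% of nuclei held a UMI. Leptomeningeal fibroblast-like nuclei followed with 505 ± 88.7 CPM, and over all libraries the level was 613 CPM in the 60 nuclei that stayed fibroblast-like and 67.5 CPM in the 42 that became mural cell-like.

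Dag1 was spread over the classes. Its mean was 154 ± 77.7 CPM in leptomeningeal fibroblast-like nuclei, 133 ± 35.1 CPM in endothelial cell-like nuclei, 96.6 ± 31.7 CPM in ependymal cell-like nuclei, 93.5 ± 7.44 CPM in astrocyte-like nuclei and 79.5 ± 8.48 CPM in cortical glutamatergic neuron-like nuclei, and neighbours in this order overlapped. In the fibroblast-like class Dag1 was at 125 CPM (85.9 to 175) in the 60 nuclei and at 216 CPM (123 to 351) in the 42. Dag1 therefore did not mark astrocytes in these nuclei.

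**Figure D1:**
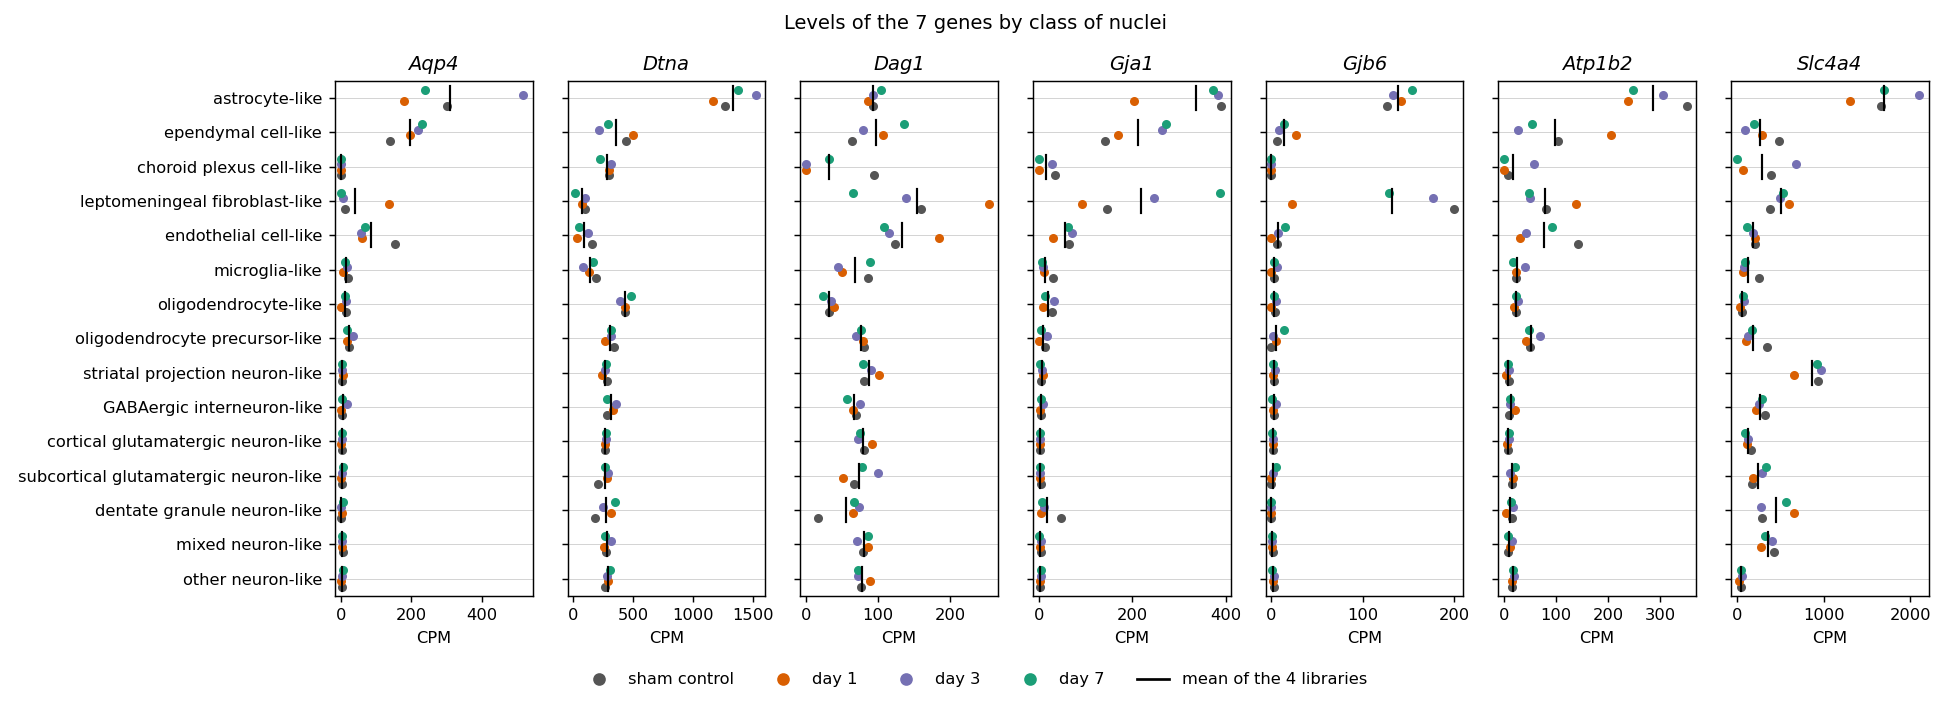
Levels of the 7 genes in CPM (horizontal axes, a scale of its own for each gene) in 15 named classes of nuclei, with 1 point per library and a line at the mean of the 4 libraries. Aqp4, Gja1, Gjb6 and Atp1b2 lie near 0 in the neuronal classes, Dtna and Slc4a4 are highest in astrocyte-like nuclei and present elsewhere, and Dag1 is spread over the classes.

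The share of all UMIs of a gene that lay in astrocyte-like nuclei gives the same picture from another side. In sham control it was 58.0% for Aqp4 (Clopper-Pearson interval 52.6 to 63.4), 63.4% for Gja1 (58.5 to 68.1), 60.3% for Gjb6 (51.6 to 68.6) and 48.5% for Atp1b2 (43.9 to 53.1). It was 15.8% for Dtna (14.8 to 16.8), 16.2% for Slc4a4 (15.3 to 17.1) and 4.75% for Dag1 (3.64 to 6.07). On day 1 the share was 47.2% for Aqp4 (38.8 to 55.7), 46.6% for Gja1 (38.8 to 54.6), 33.5% for Atp1b2 (27.8 to 39.5) and 68.8% for Gjb6 (57.3 to 78.9). On day 3 and day 7 it was 60.6% and 50% for Aqp4, 50.3% and 57.0% for Gja1, 51.7% and 67.4% for Gjb6, and 39.0% and 36.1% for Atp1b2. These shares also move with the fraction of nuclei that were astrocyte-like, given above.

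The next comparison asked how the genes stood in astrocyte-like nuclei after the occlusion. Aqp4 was at 301 CPM in sham control (interval 260 to 346), 179 on day 1 (139 to 227), 519 on day 3 (470 to 571) and 238 on day 7 (194 to 290). Its ratio to sham control was 0.594 on day 1 (0.443 to 0.788), 1.72 on day 3 (1.45 to 2.05) and 0.791 on day 7 (0.615 to 1.01). Against day 1 the day 3 level was 2.90-fold (2.24 to 3.81), and the day 7 level was 0.459 of that on day 3 (0.365 to 0.573). The day 3 library therefore stood above the 3 other libraries, and none of their intervals reached its own.

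Aqp4 was spread unevenly over nuclei. In sham control, 57 of its 195 UMIs (29.2%) came from a single nucleus, which also held 35 UMIs of Gfap, and the next nucleus held 12. On day 1, 19 of 67 UMIs (28.4%) came from 1 nucleus. On day 3, 46 of 416 UMIs (11.1%) did, and 11 nuclei held more than 10 UMIs, against 2 in sham control, 1 on day 1 and 1 on day 7. Without the nucleus richest in Aqp4 in each library the levels were 225, 131, 465 and 213 CPM in the order of sham control, day 1, day 3 and day 7, which gives a log2 ratio to sham control of 1.05 on day 3 in place of 0.78.

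The low level of Aqp4 on day 1 depended on how nuclei were weighted. As the mean of each nucleus's own CPM, Aqp4 stood at 227 in sham control and 229 on day 1, whereas it stood at 445 on day 3 and 189 on day 7. Nuclei with a UMI of Aqp4 made up 42.1%, 44.4%, 50.7% and 46.4% of astrocyte-like nuclei in the same order, and after thinning every nucleus to 1000 UMIs 20.7%, 11.1%, 23.5% and 14.5%. In cortical glutamatergic neuron-like nuclei, whose median depth was 8937.5 to 15807 UMIs, 2.68% to 3.69% of nuclei held a UMI of Aqp4, and 0.334% to 0.457% did after thinning.

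Of the connexins, Gja1 was lower on day 1 from summed UMIs and Gjb6 was not, a contrast whose direction the mean of each nucleus's CPM kept and thinning did not. Gja1 was at 391 CPM in sham control (344 to 442), 203 on day 1 (160 to 254), 383 on day 3 (341 to 428) and 373 on day 7 (317 to 436). The day 1 interval lay under those of the 3 other libraries, and the ratio to sham control was 0.520 (0.397 to 0.674), against 0.980 on day 3 and 0.955 on day 7. A single nucleus gave 16.6% of the sham UMIs of Gja1, and without the richest nucleus of each library the levels at sham control and day 1 were 344 and 183 CPM. By the mean of each nucleus's CPM they were 388 and 260, and after thinning the log2 ratio was -0.32 in place of -0.94. Gjb6 from summed UMIs stayed between 127 and 154 CPM, with ratios to sham control of 1.12 on day 1 (0.776 to 1.60), 1.05 on day 3 (0.783 to 1.42) and 1.22 on day 7 (0.863 to 1.71). From summed UMIs the day 1 ratio intervals of the connexins did not overlap. By the mean of each nucleus's CPM the day 1 ratios were 0.669 for Gja1 (0.510 to 0.867) and 1.26 for Gjb6 (0.872 to 1.80). These intervals keep the relative width of those from summed UMIs and do not cover the error of this mean, so they cannot show whether the ratios differ. After thinning, the day 1 ratios were 0.801 for Gja1 (0.437 to 1.40) and 0.806 for Gjb6 (0.265 to 2.08), and these wide intervals overlapped. With the unnamed cluster added they were 0.421 (0.327 to 0.537) and 0.809 (0.568 to 1.15).

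Among the anchors of the complex, Dtna was at 1266 CPM in sham control (1181 to 1356), 1167 on day 1 (1060 to 1282), 1524 on day 3 (1440 to 1612) and 1371 on day 7 (1261 to 1489). Its ratio to sham control was 0.922 on day 1, 1.20 on day 3 (1.10 to 1.32) and 1.08 on day 7. Dag1 was at 92.6, 85.5, 92.3 and 103 CPM from 60, 32, 74 and 43 UMIs, and all its intervals overlapped. Its ratio on day 1, 0.922, had an interval from 0.581 to 1.44, and a change within this range was not detectable at this depth.

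Atp1b2 was at 351 CPM in sham control (306 to 399), 238 on day 1 (191 to 293), 304 on day 3 (267 to 345) and 248 on day 7 (202 to 301). All 3 post-injury libraries lay below sham control, with ratios of 0.678 on day 1 (0.525 to 0.870), 0.868 on day 3 (0.722 to 1.04) and 0.707 on day 7 (0.555 to 0.896). By the mean of each nucleus's CPM the day 1 level, 329, was no lower than the sham level of 326. Slc4a4 was at 1660 CPM in sham control (1562 to 1762), 1309 on day 1 (1195 to 1430), 2104 on day 3 (2005 to 2207) and 1691 on day 7 (1569 to 1821), with ratios of 0.788 (0.707 to 0.878), 1.27 (1.17 to 1.37) and 1.02 (0.925 to 1.12).

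**Figure D2:**
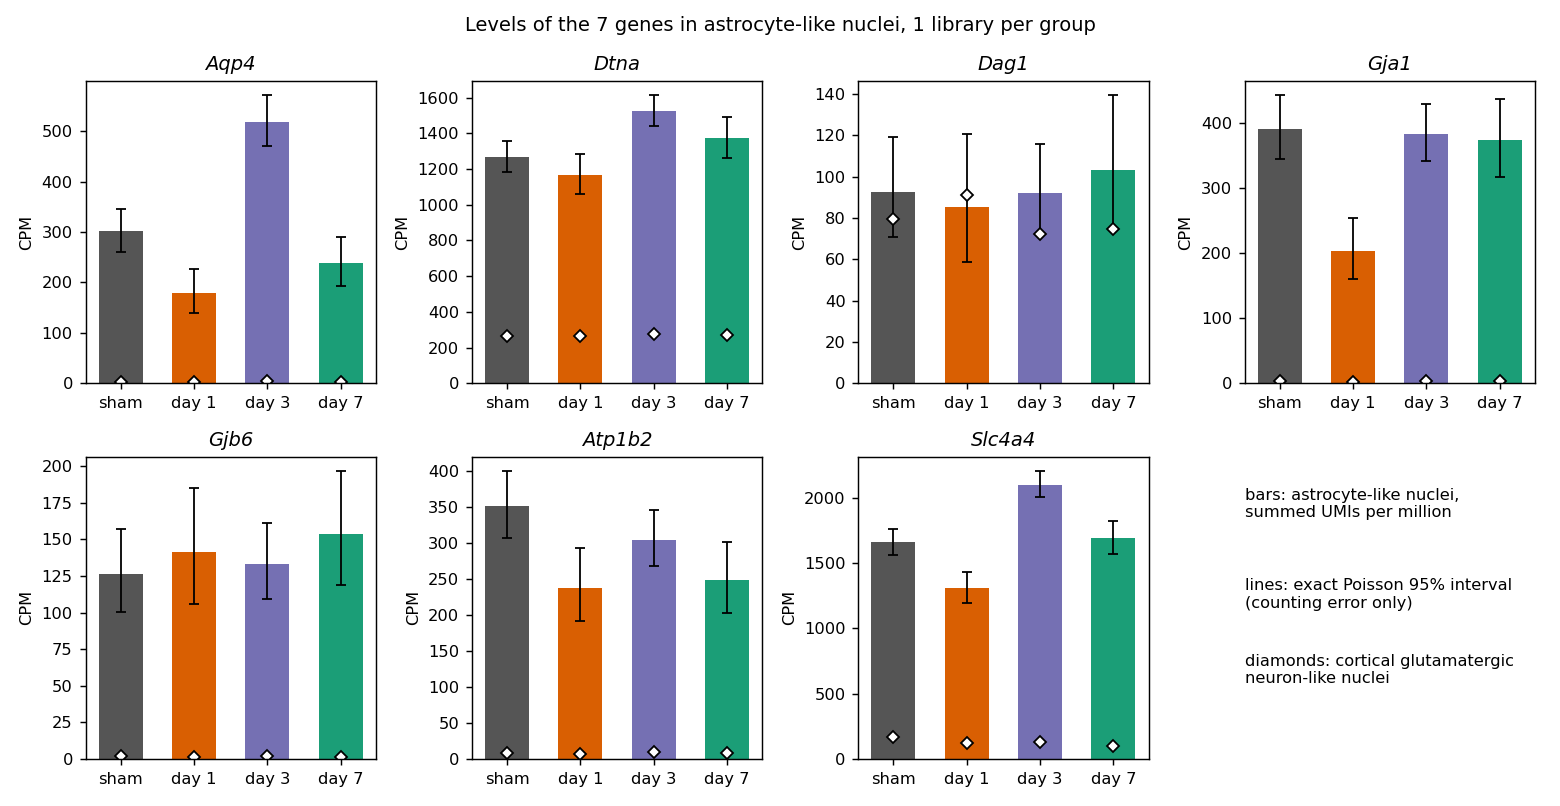
Levels in astrocyte-like nuclei (bars, CPM) by library, with exact Poisson 95% intervals and, as diamonds, the level in cortical glutamatergic neuron-like nuclei. Aqp4 is highest on day 3 at 519 CPM, Gja1 is lowest on day 1 at 203 CPM, and Gjb6 and Dag1 have overlapping intervals in all 4 libraries.

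A gene was called where its ratio to sham control was at least 1.5-fold in either direction with an interval clear of 1, among genes with at least 10 UMIs in both libraries together. On day 1, 2 of the 7 genes were called lower, Aqp4 and Gja1, and 0 higher, where 5.61% of all 10675 genes were called lower and 3.75% higher. On day 3, 1 of 7 was called higher, Aqp4, and 0 lower, against 3.49% higher and 6.18% lower among 11729 genes. On day 7 none of the 7 was called in either direction, against 3.78% higher and 5.82% lower among 10844 genes. Among genes with at least as many UMIs as the lowest of the 7, the shares were larger. They were 5.14% higher and 7.55% lower on day 1, 4.19% and 6.755% on day 3, and 5.43% and 8.27% on day 7. The median log2 ratio of the 7 genes was -0.34 on day 1, 0.08 on day 3 and 0.03 on day 7, and the median of all genes was -0.09, -0.05 and -0.09. The lower calls on day 1 dropped to 0 both with the mean of each nucleus's CPM and after thinning. By that mean Gja1, at 0.669, lay just short of 1.5-fold, and after thinning Aqp4 stood at 0.732 with a wide interval (0.308 to 1.56). The lower calls on day 1 numbered 4 when the unnamed cluster was added. In addition to Aqp4, at 0.412, and Gja1, these were Atp1b2, at 0.524 (0.412 to 0.661), and Slc4a4, at 0.593 (0.534 to 0.658). On day 3 the ratio of Slc4a4 then fell from 1.27 to 1.03 (0.953 to 1.11), and on day 7 Atp1b2 was called lower, at 0.631 (0.503 to 0.789). With these nuclei added the ratios of Dtna became 0.731 on day 1 (0.653 to 0.818), 0.9404 on day 3 (0.861 to 1.03) and 0.929 on day 7 (0.835 to 1.03), below 1 at each day. Slc4a4 on day 7 became 0.884 (0.804 to 0.970) and Aqp4 on day 7 became 0.686 (0.540 to 0.867), both without a call. The call of Aqp4 on day 3 was kept with the mean of each nucleus's CPM and after thinning. It was lost with the whole unnamed cluster added, when its log2 ratio was 0.55. With only the 56 nuclei added that were closest to astrocytes at a resolution of 1.5, Aqp4 on day 3 was still called higher, at 1.74 (1.47 to 2.06), 3 genes were called lower on day 1, which were Aqp4, Gja1 and Atp1b2, and Atp1b2 was again called lower on day 7, at 0.625 (0.497 to 0.782).

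**Figure D3:**
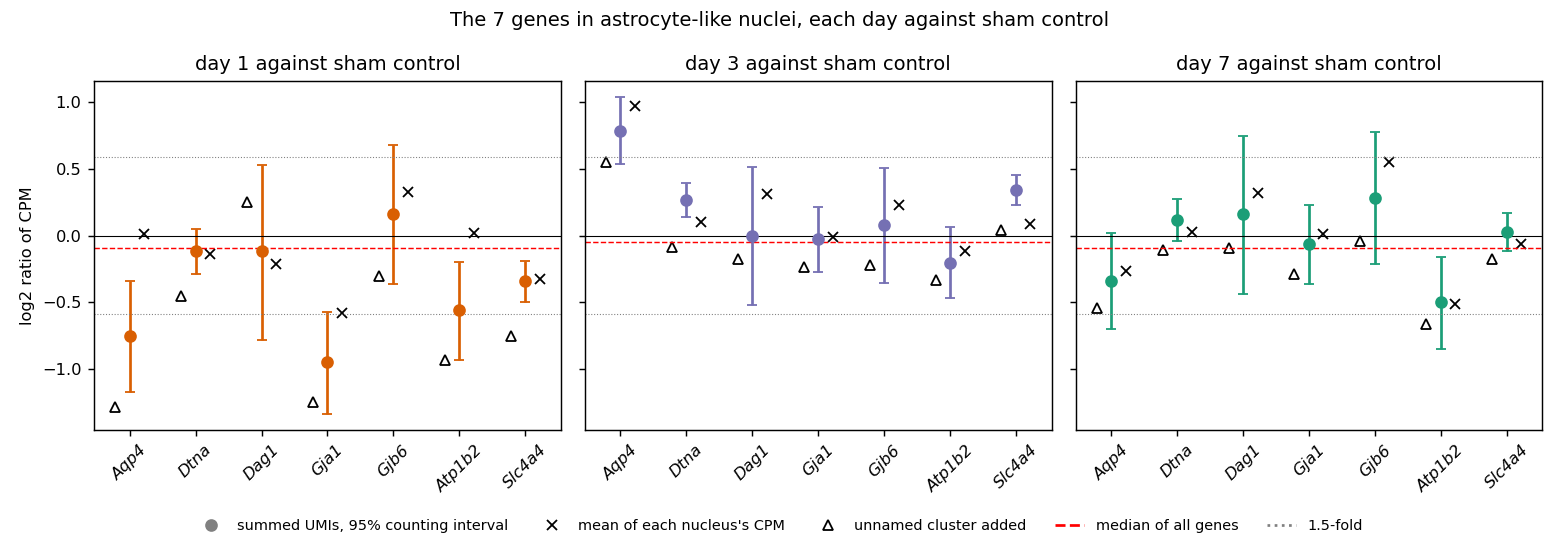
Log2 ratio of each gene in astrocyte-like nuclei to sham control (vertical axis) at each day, from summed UMIs with 95% counting intervals, with crosses for the mean of each nucleus's CPM and triangles with the unnamed cluster added. Aqp4 on day 3 lies above 0 by all 3 summaries, whereas Aqp4 on day 1 is at -0.75 from sums and at 0.01 from the mean of each nucleus's CPM.

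Levels in the unnamed cluster were lower than in the astrocyte-like cluster for Aqp4, Gja1 and Slc4a4 in every library. Aqp4 was there at 131 CPM in sham control, 16.4 on day 1, 206 on day 3 and 76.2 on day 7, so day 3 was again the highest and day 1 the lowest. Gja1 was at 50.5, 57.3, 128 and 64.5 CPM, and Slc4a4 at 192, 196, 404 and 328 CPM. These values rest on 4 to 176 UMIs and on a mix of nuclei that differed between libraries, since 7 of 16, 6 of 27, 30 of 92 and 13 of 27 were among the 56 closest to astrocytes at the finer resolution. On day 3 those 30 nuclei held 477 CPM of Aqp4 (369 to 607) and 376 CPM of Atp1b2 (281 to 493), against 81.6 and 74.8 CPM in the 61 closest to neuroblasts. In sham control, day 1 and day 7 the nuclei closest to astrocytes held 200, 30.4 and 95.8 CPM of Aqp4.

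RNA of other cells in the astrocyte-like nuclei also differed between libraries. The summed level of the 10 oligodendrocyte markers, all of which were detected in each library, was 1174 CPM in sham control, 577 on day 1, 1475 on day 3 and 1566 on day 7. That of the 10 microglia markers was 128, 187, 287 and 452 CPM with 9, 9, 10 and 10 detected, and that of the 9 striatal projection neuron markers was 923, 670, 423 and 462 CPM with all 9 detected. The share of UMIs estimated to come from free RNA was 5.01%, 4.57%, 7.74% and 4.68% in cortical glutamatergic neuron-like nuclei. It would be 12.4%, 11.7%, 21.4% and 9.25% in astrocyte-like nuclei if each nucleus took up an equal number of free UMIs. Their part in the results was not tested, but with that equal number subtracted the log2 ratio of Aqp4 was -0.77 on day 1 and 0.92 on day 3.

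Within the class, Aqp4 was higher in nuclei that carried transcripts of Gfap or Vim, the intermediate filaments that mark reactive astrocytes. In astrocyte-like nuclei Gfap itself was called higher at every day, with ratios to sham control of 1.58 on day 1 (1.22 to 2.05), 3.52 on day 3 (2.90 to 4.29) and 1.98 on day 7 (1.56 to 2.51). Vim was at 0.625 on day 1 (0.304 to 1.21) with no call, and was called higher on day 3, at 5.92 (4.17 to 8.64), and on day 7, at 1.77 (1.11 to 2.86). Of 7 listed genes of reactive astrocytes, 5 had enough UMIs on day 1, with 2 above sham control and 3 below. Gfap was called higher and Thbs4 lower that day, beside 3.75% higher and 5.61% lower among all genes. On day 3, 6 of the 7 were called higher, and on day 7, 4 of 5, beside 3.49% and 3.78% of all genes. After thinning to 1000 UMIs, 17 of 145 nuclei held a UMI of Gfap or Vim in sham control, 14 of 54 on day 1, 65 of 217 on day 3 and 11 of 69 on day 7, which is 11.7%, 25.9%, 30.0% and 15.9%.

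The level of Aqp4 with and without such a UMI was 529 and 188 CPM in sham control, 429 and 75 on day 1, 877 and 329 on day 3, and 545 and 172 on day 7. The ratio of the sides was 2.82 in sham control (1.16 to 6.29), 5.71 on day 1 (1.22 to 35.3), 2.67 on day 3 (1.79 to 3.98) and 3.16 on day 7 (0.945 to 9.61). It was above 1 in 4 of 4 libraries, with an interval clear of 1 in all but day 7. The side with Gfap or Vim held 9, 6, 57 and 6 UMIs of Aqp4 and the other side 24, 3, 50 and 10. Slc1a3, as a comparison, had ratios of 1.04, 1.64, 1.04 and 1.04. Nuclei without Gfap or Vim also held more Aqp4 on day 3 than in sham control, by 1.75-fold (1.06 to 2.98), and nuclei with it by 1.66-fold (0.814 to 3.81).

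The other genes followed the split less evenly. Atp1b2 had ratios of 3.06 in sham control (1.47 to 5.99) and 2.14 on day 3 (1.28 to 3.56), 1.79 on day 1 (0.460 to 6.19) and 0.352 on day 7 from a single UMI. Gja1 had ratios of 2.01, 1.19, 1.32 and 0.930, each with an interval that held 1. Dtna was at 1.00 in sham control, 1.95 on day 1 (1.14 to 3.30), 0.677 on day 3 (0.517 to 0.879) and 1.76 on day 7 (1.07 to 2.80), so its direction differed between libraries. Slc4a4 was at 0.646 in sham control (0.403 to 0.990) and at 1.02, 1.10 and 0.753 at the later time points.

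**Figure D4:**
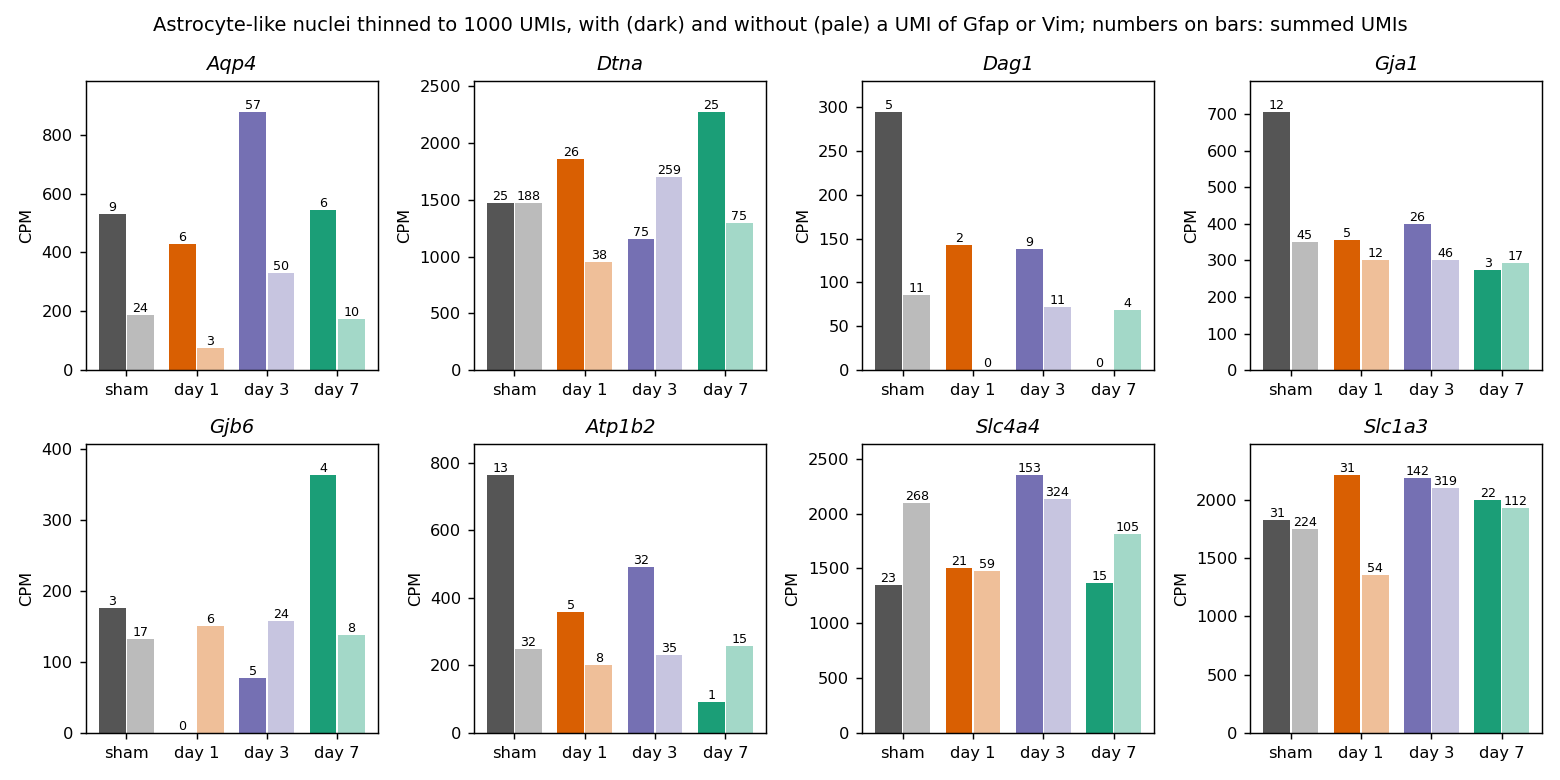
Levels (CPM) in astrocyte-like nuclei thinned to 1000 UMIs, with (dark bars) and without (pale bars) a UMI of Gfap or Vim, by library, and the number of summed UMIs on each bar. Aqp4 is higher in the dark bar of all 4 libraries, while Slc1a3 differs between the bars mainly on day 1.

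The nuclei were also split by 5 genes of telencephalic and 6 genes of other astrocytes, leaving out nuclei with equal sums, which compares 63 with 49 nuclei in sham control, 22 with 18 on day 1, 108 with 65 on day 3 and 25 with 29 on day 7. Dtna was higher on the telencephalic side in each library, by 1.61 (1.16 to 2.28), 1.88 (1.04 to 3.54), 1.19 (0.916 to 1.56) and 1.28 (0.810 to 2.03). The astrocyte marker Slc1a2, as a comparison, was higher there by 2.14, 2.81, 1.90 and 2.11, more than Dtna in each library. Slc1a3 was at 1.07, 1.07, 1.58 and 0.805. Slc4a4 was lower there in sham control, at 0.529 (0.406 to 0.687), and on day 3, at 0.563 (0.458 to 0.691), whereas it was 0.818 on day 1 (0.481 to 1.39) and 1.11 on day 7 (0.737 to 1.69). Atp1b2 was lower there on day 3, at 0.349 (0.184 to 0.645), but at 1.77 (0.839 to 3.98), 0.468 (0.100 to 1.84) and 1.74 (0.553 to 5.94) in sham control, day 1 and day 7. Aqp4 was higher there on day 1, from 8 UMIs against 0, and lower on day 3, at 0.586 (0.360 to 0.953), with no common direction. Dag1 was at 0.301 on day 3 (0.0807 to 0.966) from 5 against 10 UMIs. The other ratios of the 7 genes had intervals that held 1.

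Individual nuclei showed few of the genes together at this depth, and most held neither connexin. After thinning, the median nucleus held UMIs of 2 of the 7 genes in every library, and nuclei with at least 3 made up 47.6%, 29.6%, 47.0% and 40.6% in the order of the time points. Both connexins were seen in 4.83%, 3.70%, 4.15% and 4.35% of nuclei. Only Gja1 was seen in 39, 15, 49 and 14 nuclei, only Gjb6 in 10, 4, 20 and 8, and neither in 89 of 145, 33 of 54, 139 of 217 and 44 of 69. Whether the connexins were seen together more or less often than these single rates give was not tested. At full depth 8, 2, 7 and 7 nuclei held all 7 genes.

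Partners of the 7 genes, from lists of related genes, were called in both directions. Of 17 genes of the dystrophin-associated complex and its ligands, 16 had enough UMIs at each day. On day 1, 0 of them were called higher and 1 lower, on day 3, 1 higher and 3 lower, and on day 7, 0 in either direction. Over all genes the shares called higher and lower were 3.75% and 5.61% on day 1, 3.49% and 6.18% on day 3, and 3.78% and 5.82% on day 7, and the counts of this and the next lists are to be read against them. The genes were Sgcb on day 1, from 4 UMIs against 25 in sham control, and Lamb2, Sntb2, Sntg1 and Sntg2 on day 3. Lamb2, a laminin chain and the one gene called higher, had 26 UMIs against 7. Dmd, dystrophin itself, had the most UMIs of this list and was at 865, 734, 875 and 825 CPM in astrocyte-like nuclei. The syntrophins Sntb2 and Sntg1 were at 0.619 (0.389 to 0.976) and 0.587 (0.460 to 0.748) on day 3. Of the 3 other aquaporins, 1 had enough UMIs on day 1 and 2 on day 3 and day 7, and none of these was called, and Aqp9, with the most UMIs of them, was at 27.8 CPM from 18 UMIs in sham control.

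Of 8 sodium pump genes, 1 was called lower on day 1 and 1 on day 7, and 0 were called higher, where 5.61% and 5.82% of all genes were called lower on these days. Fxyd1, a regulator of the pump, was called lower on day 1, at 0.577 (0.318 to 0.999), and Fxyd6 on day 7, from 5 UMIs against 26. Of these 26, 17 came from 1 nucleus, and without the richest nucleus of each library 3 stood against 9 with no call. Of 9 genes of bicarbonate and proton transport, 7 to 8 had enough UMIs. On day 1 the bicarbonate transporter Slc4a10 was called higher, at 2.00 (1.38 to 2.91), and carbonic anhydrase Car2 lower, at 0.571 (0.370 to 0.859), and there were no calls on day 3 or day 7. A single nucleus gave 31.8% of the 66 day 1 UMIs of Slc4a10, and without the richest nuclei the ratio was 1.60 (1.05 to 2.43). After thinning, nuclei with a UMI of Slc4a10 made up 6.90% in sham control and 3.70% on day 1, and those with Car2 11.7% and 14.8%, so these shares ran against both calls. Slc4a10 is better known from neurons.

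Of 6 genes of potassium and volume regulation at endfeet, 5 had enough UMIs, and 2 were called higher and 2 lower on day 1, 0 in either direction on day 3, and 1 lower on day 7, beside 3.75% higher and 5.61% lower among all genes on day 1. The higher genes on day 1 were Kcnj16, a potassium channel subunit, from 20 UMIs against 16, and Clcn2, a chloride channel, from 16 against 11. Without the richest nucleus of each library neither was called, at 2.11 (0.977 to 4.61) and 2.52 (0.995 to 6.67). The lower genes were Hepacam, which codes for GlialCAM, at 329 CPM in sham control and 219 on day 1, with a ratio of 0.666 (0.510 to 0.863), and its partner Mlc1, at 151 and 77.5 CPM, with a ratio of 0.512 (0.326 to 0.781). Mlc1 was also called lower on day 7, at 0.620 (0.416 to 0.907). Kcnj10, which codes for the potassium channel Kir4.1, was at 114, 128, 152 and 152 CPM with no call. Of 10 other connexins and pannexins, 1 to 3 had enough UMIs, and Gjc3 was called lower on day 1 from 3 UMIs against 31, and higher on day 7, at 2.01 (1.23 to 3.32). All 3 of the day 1 UMIs and 35% of the 40 on day 7 came from 1 nucleus, and without the richest nuclei the day 7 ratio was 1.77 (0.981 to 3.19) with no call. Gjc3 is a connexin known from oligodendrocytes.

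**Figure D5:**
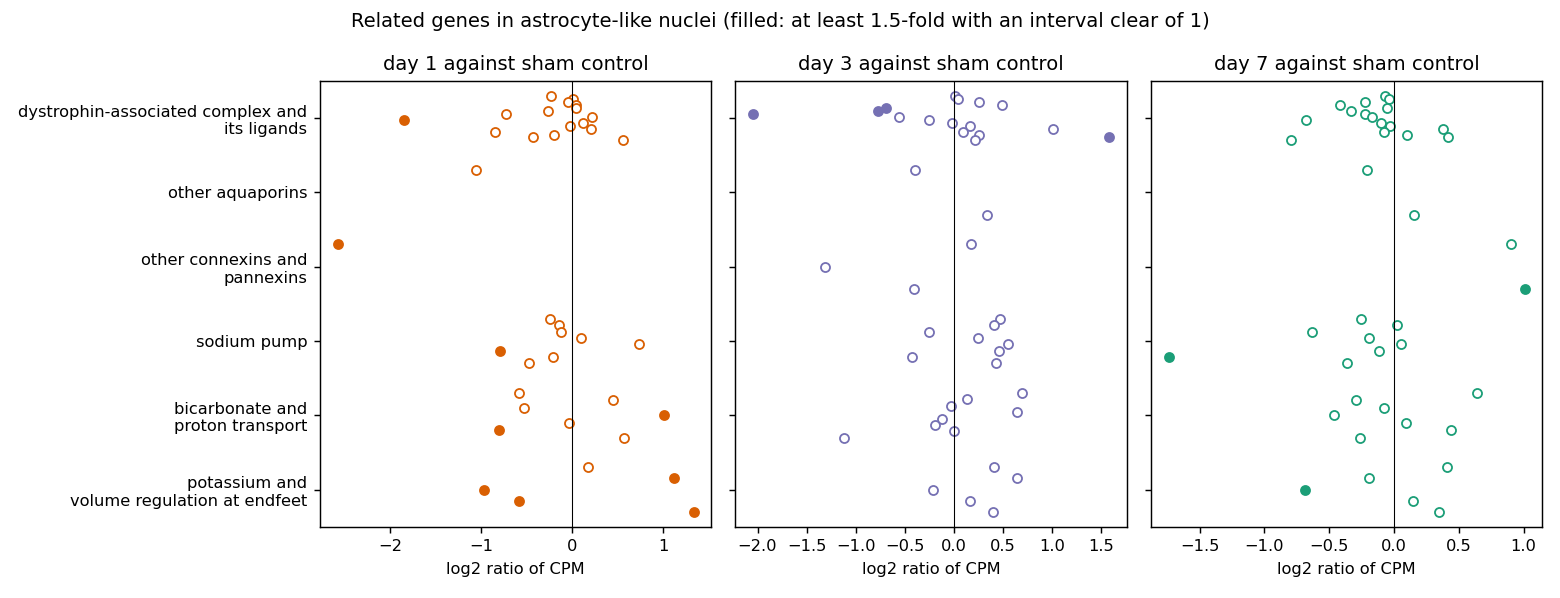
Log2 ratio to sham control (horizontal axis) of each related gene with at least 10 UMIs in both libraries together, by list and day, in astrocyte-like nuclei. Filled points pass 1.5-fold with an interval clear of 1, and they fall on both sides of 0.

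Outside astrocytes Slc4a4 had the most UMIs. In striatal projection neuron-like nuclei it was at 933 CPM in sham control (900 to 966), 657 on day 1 (623 to 694), 975 on day 3 (942 to 1010) and 919 on day 7 (878 to 961), with a ratio of 0.705 on day 1 (0.661 to 0.752). In cortical glutamatergic neuron-like nuclei it was at 167, 121, 128 and 99.7 CPM, with ratios of 0.722 (0.644 to 0.810), 0.768 (0.698 to 0.844) and 0.597 (0.526 to 0.677), of which the last passed 1.5-fold, where 4.27% of all genes were called lower in that class on day 7. The day 1 library was thus the lowest for Slc4a4 in the astrocyte-like and in the striatal class, and the level in free RNA was also lowest there, at 186 CPM against 287, 303 and 266 CPM in sham control, day 3 and day 7.

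Oligodendrocyte precursor-like nuclei held 343 CPM of Slc4a4 in sham control and 106, 131 and 181 CPM in the libraries of day 1, day 3 and day 7, with ratios of 0.310 (0.188 to 0.492), 0.382 (0.272 to 0.533) and 0.526 (0.352 to 0.772). It was called lower at each day, where 3.91%, 3.16% and 4.39% of all genes were called lower in this class. However, 33.7% of the 98 sham UMIs came from a single nucleus, and 57.9% of the 38 on day 7 did. Without the richest nucleus of each library the levels were 244, 98.5, 119 and 81.4 CPM. Ratios of Slc4a4 went in both directions in other classes. In oligodendrocyte-like nuclei they were 0.760 (0.451 to 1.25), 1.52 (1.05 to 2.22) and 1.22 (0.795 to 1.86) from day 1 to day 7. Leptomeningeal fibroblast-like nuclei had 1.55, 1.29 and 1.38, and endothelial cell-like nuclei 1.01, 0.859 and 0.578, each with an interval that held 1. Lower ratios at each day were seen in microglia-like and ependymal cell-like nuclei. In microglia-like nuclei they were 0.303 (0.175 to 0.502), 0.351 (0.233 to 0.522) and 0.365 (0.228 to 0.570) from day 1 to day 7, and in ependymal cell-like nuclei 0.612 (0.393 to 0.933), 0.201 (0.0963 to 0.381) and 0.424 (0.226 to 0.744), where 1 of 17 sham nuclei gave 69.3% of the sham UMIs. Without the richest nucleus of each library the microglia-like levels were 187, 53.3, 79.5 and 50.4 CPM and stayed below sham control at each day, whereas the ependymal levels were 195, 199, 80.7 and 177 CPM, so that only day 3 stood well below sham control there. Free RNA taken up in equal number by every nucleus would give 48.8, 26.0, 99.9 and 46.4 CPM of Slc4a4 in microglia-like nuclei, beside 253, 76.6, 88.7 and 92.2 CPM measured, so the day 3 level there is at background and the other ratios rest in part on it. It would give 23.8 to 53.2 CPM in the precursor class and 9.43 to 42.2 CPM in the ependymal class.

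The genes whose pattern was most like that of each member were sought over the 48 pairs of class and library with at least 20 nuclei, by Pearson's r of log2(CPM + 10) among 10750 genes. Pairs of 1 library share its depth and its free RNA, so r is a description. For Aqp4 these were Prdx6 (0.94), Mlc1 (0.94) and Fxyd1 (0.94), and for Gja1 they were Clu (0.93), Gm14964 (0.90) and Slc7a2 (0.90). For Gjb6 they were Slc7a2 (0.92), Slc7a11 (0.90) and Fam20a (0.89), and for Atp1b2 Ppap2b (0.92), Sdc4 (0.91) and Aldoc (0.90), the last of which is an astrocyte marker used in naming the classes. The likeness was looser for Dtna with Fam171b (0.85), Gnao1 (0.83) and Gm26843 (0.83), for Slc4a4 with Mapk4 (0.78), 4930448N21Rik (0.76) and Garem (0.72), and for Dag1 with Arhgef17 (0.77), Acbd4 (0.73) and Ano6 (0.73).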

How the data were processed

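The authors mapped droplet-based 3' libraries to GRCm38 with STAR 2.7.3a (STARsolo), counted exonic and intronic reads against GENCODE vM8, and deposited raw UMI counts per gene and barcode for 46983 genes, without normalisation or removal of empty droplets. Positions came from GENCODE vM21 on GRCm38. The 7 genes, the lists and the markers were chosen with earlier results of these data known.

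Nuclei were called by a re-implementation of the emptyDrops test (free RNA from barcodes of at most 1000 UMIs, 10000 draws, false discovery rate under 0.001), and doublets (0.8% per 1000 nuclei) were removed by Scrublet score. Seurat 5.3.0 (SCTransform, integration, 30 components, resolution 0.8) gave 32 clusters, named from 166 markers of 20 classes, of which 5 stayed unnamed. The 7 genes and 53 related genes were kept out of both. UMIs were summed per class and scaled to CPM, with exact Poisson intervals, exact conditional binomial intervals for ratios and Clopper-Pearson intervals for shares, at 95%. UMIs of 1 nucleus are not independent, so all cover counting error only. Free RNA was estimated per library as the 25th percentile, over markers of non-neuronal classes, of the level in cortical glutamatergic neuron-like nuclei over that in empty droplets, a choice made after the values were seen. All 7 genes are named, and of the related genes those called with at least 50 UMIs in both libraries and the one with the most UMIs in each list. The other related genes were named after their values were seen. Some related genes are not reported here by name. Alternatives covered nucleus calling, doublets, weighting, thinning, TMM scaling with edgeR 4.0.16, free RNA, filters, integration and resolution.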

Additional observations from a re-analysis of the deposited data

How the results depend on the processing

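The 7 log2 ratios at 3 days were recomputed under 13 planned and 3 added alternatives. Of the 336 values, 305 stayed within the counting interval of the reported value and 31 did not. The sign changed in 39, of which 3 had a reported interval clear of 0 and 36 had one that held 0. By the mean of each nucleus's CPM, the day 1 log2 ratios of Aqp4 and Atp1b2 became 0.011 and 0.016, the day 1 median became -0.14 and 0 genes were called lower on day 1. After thinning, 0 genes were called lower on day 1, and the day 7 median became -0.21. With the unnamed cluster added, an alternative chosen after seeing the data, the day 1 median became -0.75 with 4 genes called lower, 0 genes were called higher on day 3, the day 3 log2 ratio of Dtna became -0.089, and the day 7 median became -0.18 with 1 gene called lower. With only the 56 of these nuclei closest to astrocytes at a resolution of 1.5 added, also chosen after seeing the data, the day 1 median became -0.51, and the day 7 median -0.18 with 1 gene called lower. With doublets kept, 1 gene was called lower on day 7. TMM scaling shifted all log2 ratios by 0.03 to 0.04. The cause was not tested for any of these moves. No paired analysis was possible because each group holds 1 library. At 54 astrocyte-like nuclei, day 1 has the widest intervals, and small changes of Dag1 and Gjb6 were not detectable.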
